A study of Homo sapiens with 12 samples.

Results

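Chromatin accessibility was compared directly between HCT116 cells carrying EHF and HCT116 cells carrying CDX1, over every region on chromosomes 1 to 22 that lay outside the EHF and CDX1 genes themselves. These were 29449 of the 30170 regions in the count table. The remainder were 710 regions on chromosomes X and Y, 8 over the EHF gene and 3 over the CDX1 gene, the last of which mostly count reads of the introduced copies. The libraries came from ATAC-seq, in which the transposase Tn5 inserts sequencing adapters into open DNA, so that a region with more counts was more often accessible. HCT116 is an established human colorectal carcinoma line. HCT116 EHF cells had received the plasmid pcDNA3.1-EHF and were isolated as clones resistant to geneticin (G418). HCT116 CDX1 cells had been transduced with the retrovirus MSCV-IRES-GFP-CDX1 and sorted as a GFP-positive pool. HCT116 EV cells carried the empty vector, and HCT116 EHF+CDX1 cells were made by transfecting the CDX1 line with the EHF plasmid and selecting resistant clones. Each line had 3 libraries, numbered 1 to 3 in the labels, and all were grown in DMEM-F12 with fetal calf serum. The sources used here do not say whether numbered libraries of a line came from separate cultures, so p-values measure the spread between these libraries, which may be technical. The factor, the way it was delivered and the selection of clones or a pool differ together between the lines and cannot be told apart.

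EHF is an ETS-family transcription factor of epithelial cells, which binds DNA around a GGAA core through its ETS domain. CDX1 is a caudal-type homeobox factor of the intestinal epithelium, which binds AT-rich sites. Both are expressed in stem cells and differentiated cells of the normal intestinal epithelium, and are lost in a subset of poorly differentiated colorectal cancers. Accessibility at gene starts tends to be shared between cell states, whereas distal regions more often differ, and AP-1, the dimer of FOS and JUN proteins, commonly occupies open distal regions of carcinoma cells.

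Examples of the named regions are shown first. They are 3 of the 6 named in each direction by unadjusted p. Named regions did not match mitochondrial DNA. They had a mean of at least 10 counts in the higher line, and the libraries of the lines did not overlap. The named region with the smallest p in each direction, near NDRG1 and in CPQ, is not shown, and the 3 examples follow it in order of p. Capitals mark a CDX core (TTTATG or TTTATT), an ETS core (AGGAAGT or CGGAAGT) or an AP-1 site (TGANTCA), searched on both strands. The sequences are those of the plus strand of hg38, 5′ to 3′.
chr12:102562907-102563057, higher in EHF: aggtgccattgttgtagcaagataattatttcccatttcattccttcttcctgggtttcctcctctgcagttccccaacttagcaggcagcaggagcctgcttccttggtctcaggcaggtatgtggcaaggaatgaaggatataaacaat
chr6:28589424-28589574, higher in EHF: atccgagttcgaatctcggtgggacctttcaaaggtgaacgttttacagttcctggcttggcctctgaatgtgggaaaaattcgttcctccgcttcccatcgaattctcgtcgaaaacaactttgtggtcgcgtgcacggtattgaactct
chr14:63864417-63864567, higher in EHF: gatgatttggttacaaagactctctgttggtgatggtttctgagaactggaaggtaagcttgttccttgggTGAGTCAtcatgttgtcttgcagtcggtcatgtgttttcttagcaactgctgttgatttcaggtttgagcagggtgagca
chr11:27882057-27882207, higher in CDX1: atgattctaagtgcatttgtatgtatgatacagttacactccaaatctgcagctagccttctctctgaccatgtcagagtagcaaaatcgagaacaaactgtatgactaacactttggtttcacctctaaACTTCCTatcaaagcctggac
chr18:3593940-3594174, higher in CDX1: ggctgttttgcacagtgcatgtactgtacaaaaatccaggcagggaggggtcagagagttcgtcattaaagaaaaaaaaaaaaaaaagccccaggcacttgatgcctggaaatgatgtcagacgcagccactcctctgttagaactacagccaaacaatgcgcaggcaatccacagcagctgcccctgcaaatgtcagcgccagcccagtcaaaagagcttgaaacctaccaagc
chr9:39030712-39030895, higher in CDX1: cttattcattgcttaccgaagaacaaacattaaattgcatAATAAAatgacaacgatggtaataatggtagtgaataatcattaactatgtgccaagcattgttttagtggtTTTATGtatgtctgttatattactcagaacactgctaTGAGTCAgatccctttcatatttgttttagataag
None of the 3 regions higher in EHF held an ETS core, and the chromosome 14 region held an AP-1 site. Of those higher in CDX1, the chromosome 11 region held an ETS core, the chromosome 9 region held 2 CDX cores and an AP-1 site, and the chromosome 18 region held none of these letters. Of the 2 named regions with the smallest p, not shown here, the one near NDRG1, higher in EHF, held none of these letters. The one in CPQ, higher in CDX1, held a CDX core. Over all members 15.5% held a CDX core, 10.4% an ETS core and 18.1% an AP-1 site, and a match is a description of the letters only.

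Of the 29449 members, 10824 lay within 1 kb of the start of a protein-coding or lncRNA gene, 11147 lay within a gene and 7478 were intergenic. They were 150 to 761 bp from start to end, with a median of 150 bp. Library totals were 1388326 to 2247594 counts in HCT116 EHF and 1241063 to 2443334 in HCT116 CDX1, but much of this fell on the introduced genes. The EHF gene held 543188 to 1536042 counts in EHF libraries and 30 to 48 in CDX1 libraries, and the CDX1 gene 524981 to 1916479 in CDX1 libraries and 32 to 104 in EHF libraries. Each library thus carried the sequence its label names. A further 182 members match mitochondrial DNA and took 53.2% to 65.8% of member counts in EHF and 55.8% to 66.0% in CDX1 (means of 60.03% ± 6.35 and 62.2% ± 5.59, SD, n = 3 per line, two-sided exact permutation test, p = 0.6). The nuclear members that were left held 228020 to 448939 counts per EHF library and 167213 to 391337 per CDX1 library, and their median count in a library was 3 to 11. Replicate 2 was the deepest of both lines. As a check of the cell type, 4 of 5 epithelial marker genes had a region within 5 kb of their start (EPCAM, KRT8, KRT18 and KRT19, but not CDH1), against 0 of 6 haematopoietic and 0 of 4 endothelial markers. Of 5 fibroblast markers, COL1A1, COL1A2 and COL3A1 had regions, with 20 to 33 counts per EHF library and 16 to 22 per CDX1 library in all.

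Libraries of the same number in different lines were often as alike as libraries of the same line. Over the 2000 nuclear members with the highest mean CPM (counts relative to library size, adjusted by the TMM factors of edgeR), Spearman's rho of log2 CPM was 0.340 to 0.659 between the 3 EHF libraries and 0.468 to 0.719 between the 3 CDX1 libraries. Between an EHF and a CDX1 library of the same number it was 0.626 to 0.847, and between libraries of different numbers 0.386 to 0.664. These are correlations across regions that share a library and its depth, given as a description. Over all nuclear members tested the same-number pairs had 0.676 to 0.832 and the other pairs between lines 0.662 to 0.705, and EHF replicate 3 was there closer to CDX1 replicate 1 (0.700) than to CDX1 replicate 3 (0.676). The AP-1-containing regions showed this order too. They held 16.5% of nuclear member counts in EHF replicate 2 and 16.1% in CDX1 replicate 2, but 11.4% to 12.05% in replicates 1 and 3 of both lines. EV and EHF+CDX1 replicate 2, at 15.1% and 14.7%, also lay above the other libraries of their lines.

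**Figure D1:**
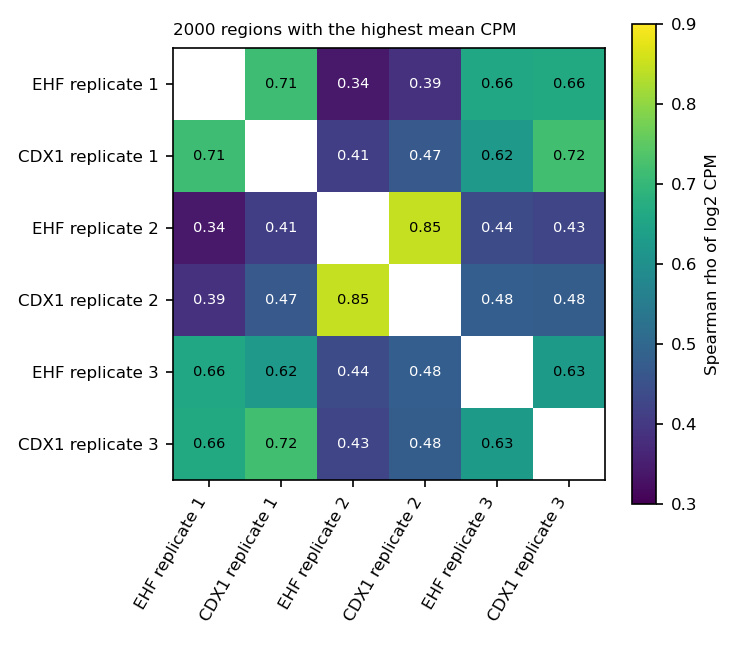
Spearman's rho of log2 CPM between the 6 libraries over the 2000 regions with the highest mean CPM, with libraries ordered by replicate number and colour giving rho. EHF and CDX1 replicate 2 form the pair with the highest value (0.847), and both have lower values with replicates 1 and 3 of either line.

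No single region outside the introduced genes passed the threshold. Of the 29434 members tested (15 were too low), 0 had an adjusted p under 0.05 in edgeR's quasi-likelihood F-test, the smallest being 0.12. Of all 30154 regions tested, 8 (0.0265%) were called, and all 8 were among the 11 regions over the EHF and CDX1 genes. At an unadjusted p under 0.05 there were 986 members, 541 higher in EHF and 445 higher in CDX1, where the whole table gave 3.38% of regions (1.86% and 1.52%). The libraries did not overlap in CPM at 1357 members that were higher in EHF and 1283 that were higher in CDX1, beside 4.58% and 4.35% of the whole table. DESeq2 also called 0 members, with 581 at an unadjusted p under 0.05. That number was 159 with library size alone and 197 with limma-trend on the deposited log2 CPM. Library size here includes reads on the introduced genes, 34.7% to 68.3% of EHF totals and 35.8% to 78.4% of CDX1 totals. That share varied within each line, and scaling by library size alone leaves this variation in the member values. The count of 0 called members depended on replicate 2 and on how the fit was set. Without EHF replicate 2, 13 members were called (12 higher in EHF), without CDX1 replicate 2, 3 were called, and without replicate 2 of every line, 26 were called (20 higher in EHF), while leaving out any replicate 1 or 3 gave 0. A fit without the robust option called 2. With the replicate number as a block and all replicates kept, 4 members were called (3 higher in EHF), the smallest adjusted p being 0.0024 (edgeR).

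The median log2 fold change over members was 0.01, with quartiles of -0.36 and 0.41, against a median standard error of 0.62. Scaling by library size alone moved this median to 0.13, and medians under that scaling are read against it. How firmly a lack of difference could be stated varied with depth. Of the 10336 members with a mean under 5 counts, 0.135% had a 95% interval that stayed within a 2-fold change in either direction. The share was 19.9% of 5929 members with 10 to 20 counts and 59.4% of 1847 with 20 to 50, but 35.2% of 426 with 50 or more, where the median standard error was 0.46 against 0.37 in the band below. Members that match mitochondrial DNA, with a median of 327 counts, had a median standard error of 0.47. Among the 1000 nuclear members with the most counts, 580 had such an interval and 7 had an unadjusted p under 0.05.

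**Figure D2:**
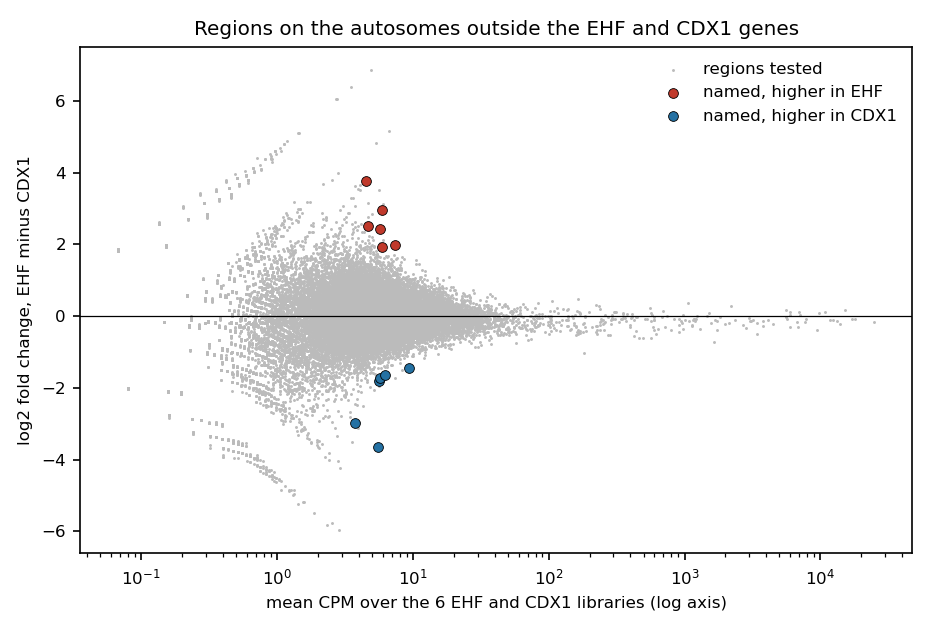
Log2 fold change (EHF minus CDX1) of each tested member against its mean CPM over the 6 libraries on a log axis. Grey points are members, and the named regions described in the text are red (6 higher in EHF) or blue (6 higher in CDX1). The spread narrows with depth around 0, and the named regions lie at a mean CPM under 10.

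No member passed the threshold, so regions are named by the smallest unadjusted p among nuclear members with a mean of at least 10 counts in the higher line and no overlap between the lines in CPM. Their separation is therefore fixed by the choice. In ATAC-seq of a cell population, fewer cells with an open region and less opening per cell cannot be told apart.

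Among regions higher in EHF, chr8:133303198-133303375 lay 1.18 kb from the start of NDRG1, a gene induced by stress and differentiation. It held 17, 6 and 16 counts in EHF libraries 1 to 3 and 0, 4 and 1 in CDX1 libraries. EHF replicates 1 and 3 were high and replicate 2 came close to CDX1. The log2 fold change was 2.96 ± 0.72 (SE, edgeR's adjusted p = 0.14). EV held 2, 5 and 1 counts and EHF+CDX1 held 6, 10 and 8, so both stayed below EHF replicates 1 and 3. The region chr12:102562907-102563057, intergenic in GENCODE but within the lncRNA LINC02456 in RefSeq, 81.2 kb from the start of the growth factor gene IGF1, held 20, 4 and 6 counts in EHF and 0, 1 and 1 in CDX1. EHF replicate 1 held most of them. With 2 counts in CDX1 in all, the ratio of EHF to CDX1 was 12.8 with a counting interval of 3.25 to 111 (edgeR's adjusted p = 0.31). EV held 2, 4 and 0.

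The region chr6:28589424-28589574 overlapped an exon of SCAND3, an exon of ZBED9-AS1 and, by 27 bases in RefSeq (GRCh38.p14), the glutamine tRNA gene TRQ-TTG2-1. It held 12, 19 and 10 counts in EHF and 3, 0 and 3 in CDX1 (2.43 ± 0.67, adjusted p = 0.56). All EHF libraries were alike here once scaled, at a CPM of 9.30 ± 1.63 (SD, n = 3) against 2.13 ± 1.88 in CDX1. EV held 2, 9 and 4 counts and EHF+CDX1 10, 10 and 10. The region chr14:63864417-63864567, on an exon of SYNE2, which encodes a nuclear envelope protein linking the nucleus to the cytoskeleton, held 4, 21 and 12 counts in EHF and 2, 1 and 2 in CDX1 (2.50 ± 0.72, adjusted p = 0.67). EV, at 7, 8 and 3 counts, lay nearer to EHF, while EHF+CDX1, at 3, 13 and 2, lay nearer to CDX1 in CPM.

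Near CES1, a carboxylesterase gene with its start 79998 bp away, chr16:55753162-55753339 held 22, 16 and 11 counts in EHF and 4, 8 and 0 in CDX1 (1.97 ± 0.57, adjusted p = 0.67). In an intron of LINC00881, 30.1 kb from the start of the cyclin gene CCNL1, chr3:157130449-157130687 held 9, 23 and 12 counts in EHF and 1, 7 and 2 in CDX1 (1.92 ± 0.56, adjusted p = 0.68). The 3 EHF libraries agreed closely, at 8.25, 9.37 and 10.98 CPM. EHF+CDX1 held 25, 84 and 9 counts at this region, so the line with both factors lay with EHF rather than with CDX1, and EV held 4, 4 and 2.

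Among regions higher in CDX1, chr8:97120406-97120556 lay in an intron of CPQ, the gene of a plasma carboxypeptidase. It held 2, 0 and 1 counts in EHF and 19, 4 and 9 in CDX1. The ratio of CDX1 to EHF was 12.5 with a counting interval of 3.90 to 63.7 (edgeR's adjusted p = 0.14). EV held 1, 0 and 0 counts and EHF+CDX1 3, 11 and 2, so CDX1 replicates 1 and 3 stood above all other libraries in CPM. The intergenic region chr11:27882057-27882207, 160.0 kb from the neurotrophin gene BDNF, held 1, 3 and 0 counts in EHF and 8, 19 and 3 in CDX1 (-2.98 ± 0.85, adjusted p = 0.67). EHF+CDX1 held 8, 7 and 1.

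Close to the start of the lncRNA DLGAP1-AS1, chr18:3593940-3594174 held 2, 7 and 3 counts in EHF and 11, 21 and 5 in CDX1 (-1.80 ± 0.57, adjusted p = 0.84). EV held 7, 13 and 3, which in CPM put all 3 EV libraries above all 3 EHF libraries. At chr9:39030712-39030895, within the pseudogene VN2R3P and 257 kb from CNTNAP3, counts were 6, 18 and 1 in EHF and 20, 20 and 12 in CDX1 (-1.44 ± 0.48, adjusted p = 1). The last of the 6 were chr1:241482876-241483026, 36.8 kb from the fumarate hydratase gene FH (-1.73 ± 0.60, adjusted p = 1), and chr20:41232477-41232627, in an intron of the zinc finger homeobox gene ZHX3 (-1.64 ± 0.58, adjusted p = 1). The FH region held 0, 8 and 4 counts in EHF and 13, 9 and 9 in CDX1, and EV lay with CDX1 at 6, 20 and 4. The ZHX3 region held 5, 8 and 1 in EHF and 8, 21 and 9 in CDX1.

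**Figure D3:**
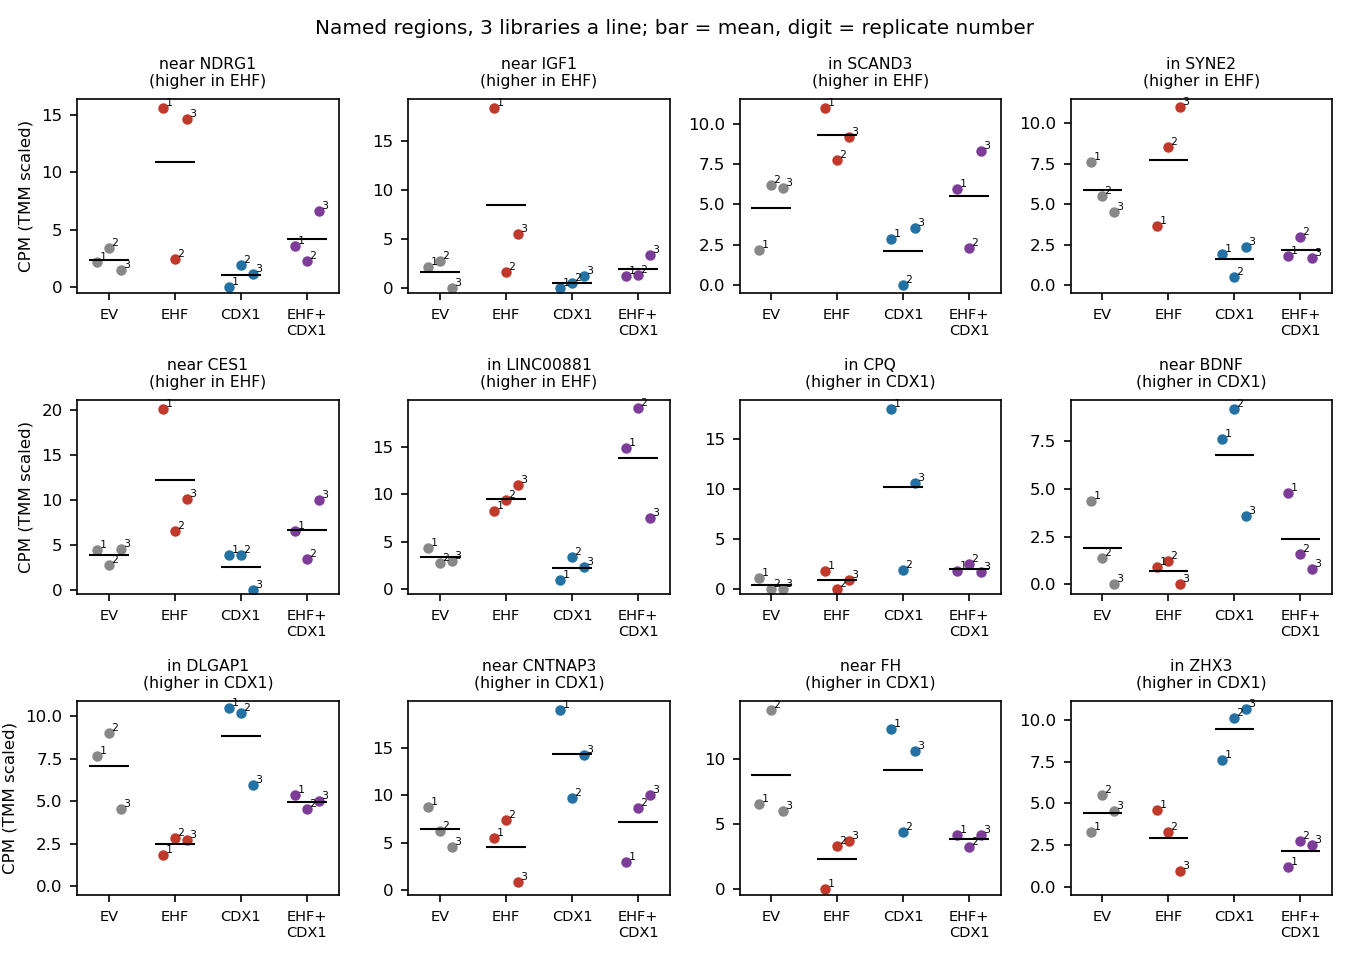
TMM-scaled CPM of the 12 named regions in the 12 libraries. Points are libraries with their replicate number, bars are means of 3 libraries, and panels are titled by the gene the region lies in or near. At NDRG1, IGF1 and CPQ the difference rests on 1 or 2 libraries of the higher line, while at SCAND3, LINC00881 and ZHX3 all 3 libraries of the higher line lie close together.

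A further 4 regions are described that were called without the robust option or without a single replicate 2. They were singled out after their values were seen. chr7:158717315-158717465, 12.5 kb from the condensin gene NCAPG2, held 19, 1 and 13 counts in EHF and 0, 0 and 0 in CDX1. With CDX1 set to a floor of 3 counts over the line, the ratio of EHF to CDX1 was 9.41 (edgeR's adjusted p = 0.79). EHF replicates 1 and 3 were high and EHF replicate 2 was near 0. It was called without the robust option, with an adjusted p of 0.021. EHF+CDX1 held 4, 2 and 9 counts there, and EV at most 1. chr6:110000418-110000606, 22.2 kb from GPR6, showed the same order with 15, 2 and 18 counts in EHF and 0, 0 and 1 in CDX1 (ratio 29.9, counting interval 5.03 to 1215, adjusted p = 0.15), and was called without EHF replicate 2. In the opposite direction chr8:109611374-109611524, in an intron of SYBU, held 0, 0 and 0 counts in EHF and 5, 1 and 10 in CDX1 (edgeR's adjusted p = 0.12), and was called without CDX1 replicate 2. With EHF set to the same floor of 3 counts, the ratio of CDX1 to EHF was 6.24. EHF+CDX1 held 8, 35 and 3 there. The last of these, chr6:167224102-167224283, 46.9 kb from UNC93A, held 6, 22 and 12 counts in EHF and 0, 9 and 0 in CDX1 (adjusted p = 0.84), and was also called without CDX1 replicate 2, as was the CPQ region.

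Gene starts were then tested as sums of the nuclear members within 1 kb of the start of each protein-coding gene. Their CPM is relative to the summed counts of gene starts alone, so it cannot be set against the CPM of regions. None of 8064 gene starts was called by edgeR (0%), and 221 (2.74%) had an unadjusted p under 0.05. DESeq2 also called 0, with 84 at that p. The 95% interval stayed within 2-fold for 3039 genes. The genes with the smallest p and at least 20 mean counts all had an adjusted p of 1. ANP32E, a histone chaperone that removes H2A.Z, held 18, 27 and 23 counts in EHF and 8, 9 and 5 in CDX1 (1.33 ± 0.42). The groups did not overlap, and EV, at 8, 11 and 6 counts, had a CPM of 100.3 ± 4.47 against 167 ± 36.3 in EHF and 67.0 ± 16.1 in CDX1 (SD, n = 3). The start shared by CIPC, a repressor of the circadian CLOCK protein, and ENSG00000259164 held 33, 39 and 34 counts in EHF and 12, 29 and 7 in CDX1 (0.95 ± 0.33).

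H3-3A, which encodes a variant histone H3, held 22, 30 and 22 counts in EHF and 11, 11 and 7 in CDX1 (1.05 ± 0.39). ACSL3, an acyl-CoA synthetase of lipid droplets, held 13, 37 and 21 against 11, 12 and 5 (1.001 ± 0.39). At H3-3A the CPM was 181 ± 33.1 in EHF, 161 ± 7.09 in EHF+CDX1 and 158 ± 70.5 in EV, against 90.1 ± 26.3 in CDX1. At ACSL3 it was 161 ± 34.1 in EHF, 153 ± 14.0 in EHF+CDX1 and 110 ± 13.2 in EV, against 82.9 ± 26.5 in CDX1. In the opposite direction the start shared by RNF20, a ubiquitin ligase of histone H2B, and PGAP4 held 24, 60 and 14 counts in EHF and 32, 76 and 29 in CDX1 (-0.81 ± 0.29). LAMB3, a laminin chain of epithelial basement membranes, held 22, 64 and 15 against 28, 92 and 24 over 3 regions (-0.79 ± 0.29). The ubiquitin ligase PELI1 held 14, 30 and 18 against 27, 42 and 22 (-0.88 ± 0.32), and the zinc finger gene ZNF14 11, 19 and 9 against 14, 38 and 14 (-1.02 ± 0.38). For PELI1 the CPM was 145 ± 13.3 in EHF and 271 ± 32.7 in CDX1, with EV between them at 196 ± 27.8.

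The gene lists, assessed over regions within 5 kb of a start, showed the same absence of calls. Across the 10 lists of intestinal, epithelial and signalling genes, 0 of 167 regions were called and 5 reached an unadjusted p of under 0.05 (2.99%, near the 3.38% of all regions). Their median log2 fold change was 0.05, beside 0.01 over all members. Of the enterocyte and brush border genes, 7 of 25 had a region and 1 of 11 regions had a p under 0.05. It lay near VIL1, which encodes the microvillus protein villin, and held 0, 0 and 0 counts in EHF and 3, 0 and 1 in CDX1 (adjusted p = 1). Both lines were at the floor, so no fold is given, and EHF+CDX1 held 4, 16 and 1 there. The other region near VIL1 held 0, 1 and 4 counts in EHF and 2, 0 and 1 in CDX1 (0.47 ± 1.27). EHF+CDX1 held 9, 28 and 0 at that region. CA2, a carbonic anhydrase gene, held 16, 44 and 24 counts in EHF and 22, 50 and 10 in CDX1 (-0.11 ± 0.36). The region with the most counts near CDHR2, a cadherin of the brush border, lay at the start of its neighbour RNF44 and held 14, 25 and 20 against 17, 21 and 18 (-0.18 ± 0.39). At both regions the lines overlapped. CDH17, a cadherin of the intestinal epithelium, had 9, 18 and 7 against 4, 12 and 5 (0.48 ± 0.58), while GPA33 and KRT20 had no region.

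Of the intestinal stem cell and Wnt pathway genes, 11 of 18 had a region, with a median of 0.28 over 17 regions, 12 of them above 0. ZNRF3, a ubiquitin ligase that removes Wnt receptors, had the only region of the 10 lists with a p under 0.01, which 0.693% of all regions had. It lay 183 bp from the start and held 8, 8 and 17 counts in EHF and 3, 2 and 3 in CDX1 (1.89 ± 0.67, adjusted p = 1). All EHF counts were above all CDX1 counts, but in CPM EHF replicate 2 fell below CDX1 replicate 3, and EV held 6, 6 and 1. RNF43, a ligase of the same kind, had 1 region at 12, 15 and 9 against 6, 7 and 2 (1.08 ± 0.56) and another at 2, 8 and 4 against 9, 8 and 3 (-0.79 ± 0.64). MYC and EPHB3 differed little, at 0.05 ± 0.50 and -0.04 ± 0.38, and LGR5 and OLFM4 had no region.

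The intestinal transcription factors had 26 regions at 14 of 19 genes and a median of -0.06, which became 0.13 with library size alone. KLF5, at 22, 61 and 21 counts in EHF and 17, 42 and 14 in CDX1 (0.27 ± 0.36), and HES1, a Notch target at 13, 41 and 9 against 12, 21 and 7 (0.35 ± 0.40), were the deepest. CDX2, the paralogue of CDX1, held 8, 12 and 8 against 16, 7 and 5 (-0.29 ± 0.52), with full overlap. The other ETS-family genes had a median of 0.00 over 20 regions, 10 above and 10 below 0. The 3 regions near ELF1 went both ways, at 0.38 ± 0.44, -0.56 ± 0.42 and -1.36 ± 0.92, and the second, which had the most counts, lay in an intron of its neighbour WBP4, 194 bp from the WBP4 start. The deepest region of GABPA, shared with the start of ATP5PF, stood at 0.26 ± 0.36 and that of ETV5 at -0.05 ± 0.36. The HOX clusters, homeobox genes of body patterning, had a median of -0.17 over 15 regions, and 0 of them had a p under 0.05. Of the goblet and secretory genes only REG4 had a region, with 2 counts over the 3 EHF libraries.

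Epithelial junction and keratin genes had the most regions, 38 at 21 of 27 genes, with a median of 0.23 and 3 at a p under 0.05. ESRP2, a splicing regulator of epithelial cells, held 13, 15 and 7 counts in EHF and 7, 6 and 0 in CDX1 (1.25 ± 0.60). A region at LAMB3 held 3, 14 and 1 against 10, 23 and 6 (-1.38 ± 0.54), and one at CLDN1, a tight junction claudin, 1, 0 and 0 against 3, 1 and 3, which is at the floor in both lines. EPCAM held 10, 16 and 8 against 3, 16 and 5 (0.37 ± 0.50). The mesenchymal list had a median of 0.06 over 8 regions, the interferon list -0.09 over 19 and the AP-1 family 0.11 over 15, each with 0 regions at a p under 0.05. JUN held 27, 66 and 28 counts in EHF and 28, 55 and 24 in CDX1 (-0.07 ± 0.35). The reference list of housekeeping genes had a median of 0.25 over 29 regions, and 2 at a p under 0.05. Its median lay between those of the stem cell and epithelial lists.

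**Figure D4:**
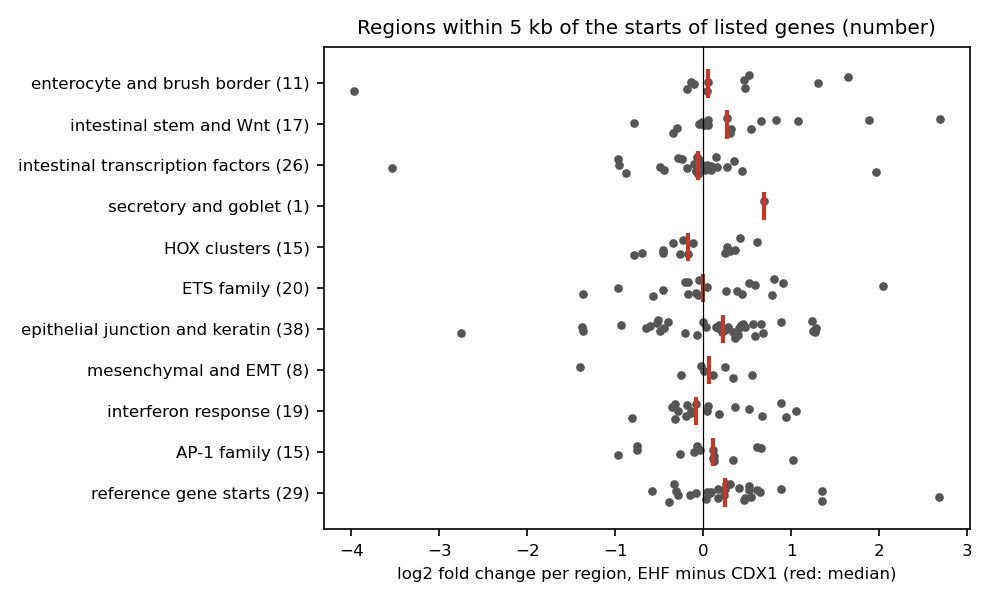
Log2 fold change (EHF minus CDX1) of each region within 5 kb of the start of a listed gene, with the median of each list in red and the number of regions in brackets. The medians lie between -0.17 and 0.28, apart from the secretory list with its single region, and points lie on both sides of 0 in the other 10 lists.

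By position, members near a gene start had a median log2 fold change of 0.08 and intergenic members -0.07, with 198 of the former higher in EHF and 59 higher in CDX1 at an unadjusted p under 0.05. These were 2.38% of near-start members, below the 3.35% of all members. Near-start members were also deeper, with a median of 8.83 mean counts against 6.67 over all members. The share under that p fell with depth, from 4.18% of members under 5 mean counts to 1.73% of those with 20 to 50. Without EHF replicate 3 the near-start median was 0.0075, under the 0.012 of members within genes, and without EHF replicate 2 it was 0.14. With library size alone these medians were 0.18 and 0.05, against 0.13 for all members. The share of nuclear counts near starts was 41.2%, 44.4% and 45.3% in EHF libraries 1 to 3 and 39.6%, 44.1% and 41.3% in CDX1. EHF was higher at each number, but the lines overlapped (43.6% ± 2.15 against 41.7% ± 2.23, two-sided exact permutation test, p = 0.3, adjusted p = 0.9 over 9 such tests, where 3 against 3 libraries cannot give less than 0.1).

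Members with a CDX core had a median of -0.11, toward CDX1, and those without it 0.03. At an unadjusted p under 0.05, 64 were higher in EHF and 155 in CDX1, 4.81% of those with the core against 3.08% of those without. With library size alone the sign turned, at 0.0062 with the core, while members without it stood at 0.15. Members with the core were also shallower, with a median of 4.5 mean counts against 6.83 without it. Members with an ETS core had a median of 0.08 and those without it 0.00, with 75 higher in EHF and 31 in CDX1 at that p, 3.48% against 3.34% of those without. The median with the ETS core ran from 0.037 without EHF replicate 3 to 0.13 without EHF replicate 2. Base composition moved with these values. The median fell from 0.05 in members with a GC content of 65% or more to -0.11 between 35% and 45%, and members with a CDX core had a median GC content of 45.03% against 58.8% without. Within the band of 35% to 45% the median was -0.18 with the core and -0.06 without, and within 45% to 55% it was -0.10 and 0.01. It was -0.31 and -0.16 under 35%, 0.05 and 0.06 within 55% to 65%, and -0.003 and 0.05 at 65% or more. Differences in log2 CPM were also taken between EHF and CDX1 libraries of the same number. Their median with the CDX core minus that without was -0.0089, 0 and -0.041 for numbers 1 to 3 within 35% to 45%. Within 45% to 55% it was -0.0089, 0 and 0. These log2 CPM values include a prior count of 2, which draws differences at low counts toward 0. Their size therefore cannot be set against the fitted medians, here or for the ETS core. For the ETS core the fitted median was 0.10 with and -0.02 without it within 45% to 55%, 0.12 and 0.05 within 55% to 65%, and 0.06 and 0.05 at 65% or more. Between same-number libraries the ETS difference within 45% to 55% was 0.15 and 0.14 at numbers 1 and 3, but -0.02 at number 2. The share of counts in ETS core members was 13.4%, 13.0% and 13.4% in EHF and 12.8%, 13.1% and 12.6% in CDX1, which overlap (exact permutation test, p = 0.2, adjusted p = 0.9). Members with an AP-1 site had a median of -0.0017, with 141 higher in EHF and 129 in CDX1 at that p, 5.08% against 2.97% of those without. The part of base composition in these medians was not tested beyond these bands, and the part of depth in the shares at that p was not tested.

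Sums over broad stretches gave the narrowest intervals. The main fit has no term for the replicate number, so differences between the numbers count as spread in it. In bins of 10 Mb, 0 of 289 (0%) were called by edgeR or by DESeq2 and 0 had an unadjusted p under 0.05 in either, with log2 fold changes of -0.44 to 0.25. The 95% interval stayed within 2-fold in 274 bins (94.8%) and within 1.5-fold in 235. The bins with the smallest p were chr3 from 60 to 70 Mb (-0.36 ± 0.20), chr21 from 10 to 20 Mb (-0.36 ± 0.21) and chr6 from 160 to 170 Mb (-0.20 ± 0.12), which were lower in EHF. Those higher in EHF were chr14 from 60 to 70 Mb (0.20 ± 0.13) and from 40 to 50 Mb (0.23 ± 0.15) and chr15 from 60 to 70 Mb (0.19 ± 0.15). Per chromosome 0 of 22 (0%) were called by edgeR or by DESeq2, and 0 had a p under 0.05 in either. Values ran from -0.18 ± 0.20 for chromosome 21 to 0.12 ± 0.14 for chromosome 19. All intervals lay within 2-fold and 20 within 1.5-fold, the exceptions being chromosomes 21 and 22. Chromosome 5 had the narrowest estimate, -0.08 ± 0.05 (edgeR's adjusted p = 0.96). The absence of calls depended on the fit. With the replicate number as a block over the 6 libraries only, 8 bins higher and 25 lower in EHF were called, and chromosome 21. That fit was chosen after seeing the data and was the only alternative to call a bin or chromosome.

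**Figure D5:**
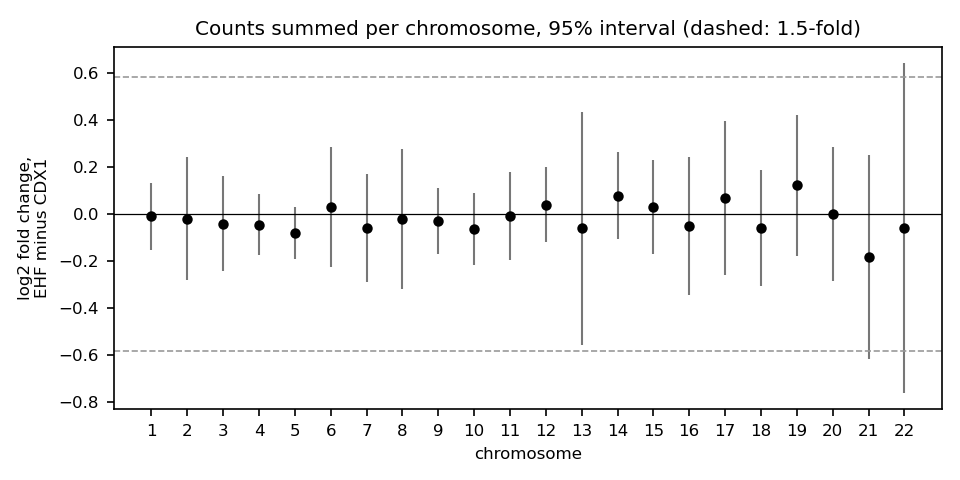
Log2 fold change (EHF minus CDX1) of nuclear member counts summed per chromosome, with 95% intervals from edgeR's fit and dashed lines at a 1.5-fold change. All 22 intervals include 0, and those of chromosomes 21 and 22 cross a dashed line.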

How the data were processed

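ATAC-seq was performed on nuclei of 4 HCT116 lines, with 3 libraries each. The authors mapped reads to hg38 with Subread 2.0.0, discarded reads mapping to several places, and called and merged peaks with HOMER 4.7 (FDR 1e-05). Their deposited count table gives raw whole-number counts per region and library. The deposited log2 CPM values were used only in 1 alternative fit. Duplicate removal and read shifting are not given in the sources used here.

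Regions were annotated with GENCODE 44. Matches to mitochondrial DNA were found with blastn 2.17.0 (at least 40 bp at 80% identity) and left out of all sums and of likeness. Counts of all 12 libraries were fitted in edgeR 4.0.16 (quasi-likelihood, robust, TMM, a coefficient per line) over all regions that reached a CPM of 3 in 1 library or more, and EHF was contrasted with CDX1. Unless another fit or test is named, p-values are of this two-sided test, with Benjamini-Hochberg adjustment and a threshold of 0.05. Those of regions were adjusted over the whole table. Gene starts, bins and chromosomes were each fitted separately on their sums, with their own scaling, spread and adjustment, and bins and chromosomes without the CPM filter. SE is of the log2 fold change. Sums used 1 kb around gene starts, bins of 10 Mb with at least 10 regions, or chromosomes. Count ratios of regions with at most 3 counts in a line have exact 95% intervals, which cover counting error only, since amplified reads carry no identifier of their molecule. Those against a line with no counts instead use a floor of 3 counts and have no interval. Regions were named by smallest p among those with a mean of 10 counts or more (gene starts 20) in the higher line, bins by smallest p, and list genes by depth or p, with others named after their values were seen. Scripts were tested on simulated data. The members, lists and tests were chosen with earlier results of these data known. Some regions and genes are not reported here.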

Additional observations from a re-analysis of the deposited data

How the results depend on the processing

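With library size alone the medians were 0.1295 for intestinal transcription factors, 0.2919 for the ETS family, 0.04738, 0.1801 and 0.1108 for intergenic, near-start and within-gene members, 0.006161 and 0.1475 with and without a CDX core, 0.1789 and 0.1218 with and without an ETS core, 0.128 without an AP-1 site and 0.1279 for all members. With cyclic loess scaling they were -0.01171 for intergenic members and -0.04298 with a CDX core.

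With the replicate number as a block, 4 members were called (3 higher in EHF), among them the NCAPG2, GPR6 and SYBU regions described in the report. In the labels, sample numbers run through every line at a replicate number before the next replicate number begins. The replicate numbers were not taken as pairs, since the labels do not say what a number or this order marks. Deviations of same-numbered EHF and CDX1 libraries from their line means also correlated at 0.116, 0.300 and 0.0897 over all nuclear members, not all above 0.1. Over the 2000 with the highest mean CPM they correlated at 0.527, 0.738 and 0.263, all above 0.1, so the pairing depends on the regions used. Over all nuclear members every library correlated best with its own number in the other line, but over those 2000 CDX1 replicate 3 correlated best with EHF replicate 1 (0.358), a hint from the data and not from the design. Without the robust option 2 members were called. With fits chosen after seeing the data, the block called 11 members over the 6 libraries only (7 higher in EHF, and 2 of the 11 match mitochondrial DNA) and 4 without the robust option. The former also called 33 bins (25 lower in EHF, log2 fold changes of -0.36 to 0.22) and 1 chromosome, chromosome 21 at -0.18. The cause of these differences was not tested.

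Leaving out replicates gave 0 to 26 called members and 0 gene starts, bins and chromosomes. The range of the median was -0.2427 to 0.5642 for enterocyte genes, -0.04462 to 0.4293 for stem cell and Wnt genes, -0.1788 to 0.005179 for intestinal transcription factors, 0.1338 to 2.66 for the secretory region, -0.4764 to 0.1472 for HOX clusters, -0.01765 to 0.1802 for the ETS family, -0.1512 to 0.2946 for mesenchymal, -0.1523 to 0.1093 for interferon, 0.1056 to 0.2278 for epithelial, -0.1701 to 0.3995 for AP-1 family and 0.1165 to 0.4723 for reference genes. It was 0.007452 to 0.1414 for near-start members, -0.08867 to 0.004899 for intergenic and -0.1136 to 0.1121 for within-gene members, -0.1694 to -0.05906 with and 0.009349 to 0.08836 without a CDX core, 0.03665 to 0.1256 with and -0.002574 to 0.05984 without an ETS core, -0.1509 to 0.189 with and -0.008641 to 0.04957 without an AP-1 site, and 0 to 0.06633 over all members.

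The count of called members was 0 under library size alone, TMM over nuclear members, 6 libraries only, DESeq2, both filters, cyclic loess, limma-voom with quantile scaling and limma-trend on the deposited log2 CPM. Library size alone includes the reads on the introduced genes, so the absence of calls under it is a weak check. TMM over nuclear members was not run for bins and chromosomes, which already hold only nuclear members and were scaled on their own sums. All 444 refits of a named region or gene start kept its direction, and 10 of them passed the threshold. These regions and gene starts were picked by smallest p, the regions also for lack of overlap between the lines. A kept direction in refits of the same libraries therefore follows largely from that choice and is no separate support. At a median of 3 to 11 counts per library and region, most members had an interval wider than a 2-fold change, and smaller differences were not detectable there.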
